A study of Drosophila melanogaster with 6 samples.

Results

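The genes described are the abundant transcripts of the larval carcass of Drosophila melanogaster. They were followed into RNA purified after tagging was directed to multidendritic (md) sensory neurons by a Gal4 driver. EC-RNA came from early L3 larvae with both the 109(2)80-Gal4 driver and the UAS-CD:UPRT transgene, fed 5-ethynylcytosine (5EC). CD:UPRT is a fusion of cytosine deaminase with uracil phosphoribosyltransferase, which turns 5EC into a uridine analog that enters new RNA, and the Gal4 line places it in md neurons. Ref-RNA came from UAS-CD:UPRT larvae without a Gal4 driver that were fed 5-ethynyluridine (5EUd), which labels new RNA in all carcass cells. Feeding lasted 12 hours in both cases, and each sample type had 2 biological replicates that were fed, dissected and processed separately from pooled carcasses. All larvae thus carried the UAS transgene, but driver and fed analog differ together between EC-RNA and ref-RNA and cannot be told apart. Because this driver is also active in the central nervous system, the latter was removed by dissection. Mock-RNA, also with 2 replicates, came from UAS-CD:UPRT larvae that were fed neither analog and shows what is purified without a tag.

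Transcript abundance, as TPM, a share of the library's transcripts scaled to a fixed total, was summed for each gene, and a gene was chosen when its ref-RNA mean was 100 TPM or more. This gave 920 of the 14240 genes in the table (6.46%). EC-RNA and mock-RNA values played no part in the choice. The 920 genes held 83.2% and 84.3% of all TPM in the ref-RNA libraries, 84.3% and 83.4% in the EC-RNA libraries and 46.1% and 61.4% in the mock-RNA libraries. A gene is called kept in an EC-RNA library when its value there is at least 1 part in 8 of its ref-RNA mean, and lost when it is lower or blank. The ref-RNA mean is thus used both to choose the genes and as the base of the ratio. Blank cells of the table were read as 0.

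The carcass is mostly body wall muscle, epidermis and the sensory neurons that lie between them, with fat body, blood cells and other tissue adhering to it. Muscle is filled with sarcomeres, in which myosin thick filaments slide along actin thin filaments that are anchored in Z-discs and held in register by titin-like proteins. Epidermis secretes the chitinous cuticle, fat body secretes storage proteins into the blood, and md neurons spread dendrites under the epidermis to sense touch, heat and harmful stimuli.

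The ref-RNA replicates lay close together, and the EC-RNA replicates did not. Between the ref-RNA libraries, 878 of the 920 genes differed by no more than 2-fold and 2 by over 10-fold, on TPM. Between the EC-RNA libraries, 597 genes differed by over 2-fold and 306 by over 10-fold, on TPM + 1. Across the 920 genes, which are not independent replicates, the log2 ratios of the 2 EC-RNA libraries to the ref-RNA mean had a Spearman rho of 0.20 and a Pearson r of 0.25. Both ratios share the same ref-RNA mean. TPM keeps no sequencing depth. The paper reports mapped reads as a range per sample type, most for ref-RNA, far fewer for EC-RNA and by far the fewest for mock-RNA. Mock-RNA values, those of 0 included, thus rest on few reads. The reads behind a single value are not given, and the spread between replicates is used in their place.

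Of the 920 genes, 418 (45.4%) were kept in both EC-RNA libraries, 178 in neither, 74 in replicate 1 only and 250 in replicate 2 only. Among the 9064 genes whose 4 libraries averaged 1 TPM or more, the share kept in both was 9.76% and the share lost in both 66.3%. Replicate 1 kept 492 of the abundant genes and replicate 2 kept 668. Kept genes stood at a median of 97.5% of their ref-RNA level in replicate 1 and 99.9% in replicate 2, with a wide spread, since 272 of the 492 and 393 of the 668 lay within 2-fold of it. By contrast, lost genes stood at a median of 1.40% and 0.521%. Few genes lay between, since 41 genes in replicate 1 and 77 in replicate 2 had values from 1 part in 16 to 1 part in 4 of the ref-RNA mean. Most of the genes lost in replicate 1 were present in replicate 2. Of the genes kept in replicate 1, 85.0% were kept in replicate 2, and of those lost in replicate 1, 58.4% were. The 159 genes within 2-fold of the ref-RNA mean in both EC-RNA libraries make up 17.3% of the 920. Without replicate 1 the genes kept would number 668, and without replicate 2 the genes lost would number 428.

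**Figure D1:**
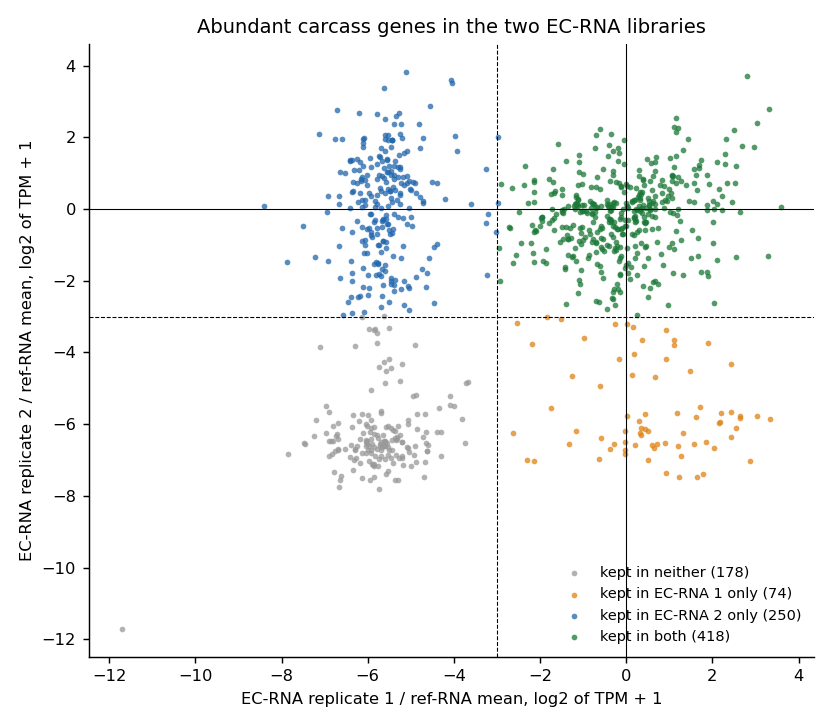
Log2 ratio of EC-RNA replicate 1 (horizontal axis) and replicate 2 (vertical axis) to the ref-RNA mean, on TPM + 1, with 1 point for each of the 920 genes, coloured by the libraries that kept it. Dashed lines mark a ratio of 1 part in 8 and solid lines an equal level. The 418 genes kept in both gather around equal levels, and the 74 and 250 genes kept in a single library form separate clouds beside the 178 lost in both.

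The difference between EC-RNA and ref-RNA was tested for all 9064 genes with limma on log2(TPM + 1), and a gene was called at a Benjamini-Hochberg adjusted p below 0.05 and at least 2-fold. Of the 920 genes, 8 were called higher and 180 lower in EC-RNA, beside 0.199% and 56.0% of all genes tested. Fewer of the abundant genes were therefore called lower than of genes at large. The median log2 fold change of the 920 was -1.77, and that of all genes tested was -2.59. With 5080 of the 9064 genes called lower, adjusted and unadjusted p-values lie close together, and the largest unadjusted p of a called gene was 0.0267. Of the 178 genes lost in both EC-RNA libraries, 170 were called lower, and of the 418 kept in both, 8 were called lower and 8 higher. The test uses the same 4 libraries that define kept and lost. These calls therefore largely follow from the definition and are no separate evidence for the split. For 89 genes each EC-RNA value exceeded each ref-RNA value, against 3.16% of genes tested, and for 422 each was lower, against 69.1%. The groups overlapped for the other 409. Leaving out EC-RNA replicate 1 changed the counts to 120 higher and 402 lower, and leaving out replicate 2 to 107 and 534, whereas 0 were called higher by limma and 68 lower without either ref-RNA replicate (5 and 1 higher at an unadjusted p below 0.05).

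TPM divides a fixed total among all genes, and 2 other scalings changed the calls. Dividing each library by its median ratio to the ref-RNA mean, over the 3545 genes above 0 in all 4 libraries, raised EC-RNA replicate 1 by 4.87 and replicate 2 by 2.24 on the log2 scale, and the calls became 17 higher and 15 lower. Of the 180 genes called lower on TPM, 170 still had a fold change below 0 under that scaling, and 2 of the 8 called higher (CG15282 and mt:ND6) were still called. Quantile normalization left 0 calls in either direction by limma, with 22 genes higher and 229 lower at an unadjusted p below 0.05. The mean of both EC-RNA libraries was above ref-RNA for 172 of the 920 genes on TPM and for 654 with median-ratio scaling. Large changes were among those that turned, since the replicate 1 median of translation factors was -3.07 on TPM and 1.77 with median-ratio scaling. The direction of many changes therefore holds for TPM only. Each list is set beside the median log2 ratio of the 920 genes, -1.95 in replicate 1 and -0.60 in replicate 2 on TPM. Under median-ratio scaling these medians were 2.91 and 1.64.

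Whether a gene was kept went with its level and with its length. Of genes at 100 to 150 TPM in ref-RNA, 29.7% were kept in both EC-RNA libraries, and of the 96 genes at 1000 TPM or more, 91.7% were. Grouped by the annotated length of the top ref-RNA transcript, 23.4% of genes of 500 to 1000 bases were kept in both and 76.9% of genes of 4000 bases or more. A similar order was seen within a level. Between 100 and 200 TPM, the share rose from 12.4% of 105 genes of 500 to 1000 bases to 69.2% of 78 genes of 4000 bases or more. The median length was 2402 bases in genes kept in both, 1608 in those kept in replicate 1 only, 1543 in those kept in replicate 2 only and 989.5 in those lost in both. Median exon numbers were 5, 4, 4 and 3, and median 3′ UTR lengths were 580, 340, 360 and 185.5 bases in the same order. At a given TPM a long transcript is represented by more reads than a short one, and the part of read number in these shares was not tested.

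**Figure D2:**
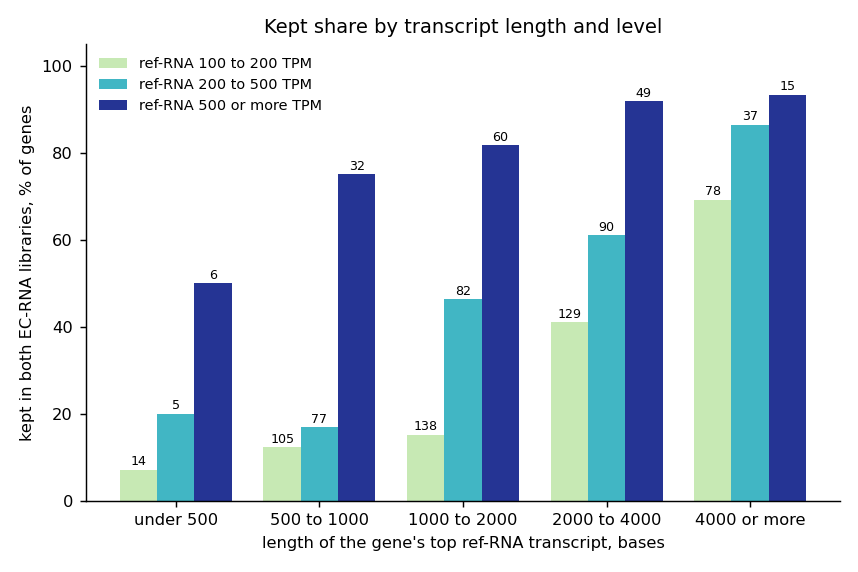
Share of genes kept in both EC-RNA libraries (vertical axis, %) by the annotated length of the top ref-RNA transcript (horizontal axis, bases) in 3 ranges of ref-RNA level, with the number of genes above each bar. Within every range the share is highest for the longest transcripts, up to 93.3% of the 15 genes of 4000 bases or more at 500 TPM or more.

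Gene lists for the tissues and functions of the carcass differed in how much was kept, and the lists also differ in level and length. All 7 genes of ecdysone and transcription response, all 12 titin-like and Z-disc genes, 9 of 10 thin filament genes and 10 of 12 glycolytic genes were kept in both EC-RNA libraries. At the other end, 3 of 26 nuclear-encoded subunits of respiratory complexes III to V, 2 of 16 of complexes I and II and 11 of 66 cytoplasmic ribosomal protein genes were kept in both. Ribosomal and respiratory genes were mostly short, since 54 of the 66 ribosomal and 31 of the 42 respiratory genes had transcripts under 1000 bases. Among all abundant genes that short, 55 of 239 were kept in both.

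**Figure D3:**
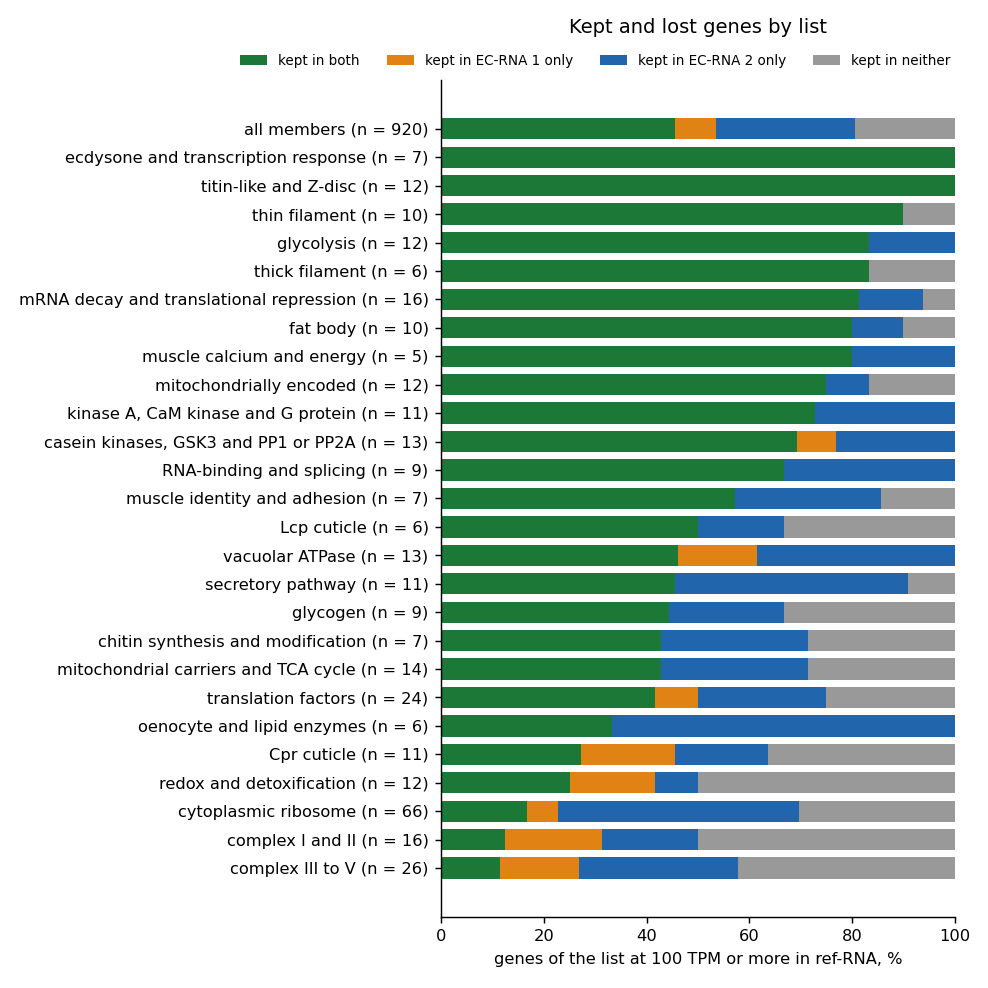
Share of the abundant genes of each list (horizontal axis, %) kept in both EC-RNA libraries, in replicate 1 only, in replicate 2 only or in neither, with the number of genes in brackets. Lists are ordered by the share kept in both, from ecdysone and transcription response and sarcomere lists at the top to respiratory complex lists at the bottom, below the bar for all 920 genes.

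Genes of the muscle sarcomere were nearly all kept, 26 of 28 in both EC-RNA libraries and none in a single library. The EC-RNA replicates lay within 2-fold of each other for 24 of the 28 genes, against 323 of all 920, and none differed by over 10-fold. These are highly abundant genes, with a median ref-RNA level of 2869 TPM against 195 TPM for all 920. Of all 96 genes at 1000 TPM or more, 91.7% were kept in both, close to the 92.9% of the sarcomere genes. The median level of the sarcomere genes was 58.3% of ref-RNA in replicate 1 and 52.7% in replicate 2. Both EC-RNA values lay below both ref-RNA values for 23 of the 28, against 422 of all 920 and 69.1% of all genes tested. In bulk RNA, the number of cells of a type that contribute, the tagged RNA per cell and RNA purified without a tag cannot be told apart. This holds for every tissue below. Together the 28 genes held 13.9% and 12.5% of the TPM in ref-RNA, 8.42% and 7.57% in EC-RNA and 1.90% and 4.87% in mock-RNA. Limma called 6 of them lower (Mlc1, Mhc, Mlc-c, up, bt and TpnC25D) and 1 higher (Mlp84B), beside 180 lower and 8 higher of all 920. With median-ratio scaling their median log2 ratios, -0.78 and -0.92 on TPM, were 4.09 and 1.32, beside the medians of all abundant genes given above.

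Of the thick filament genes, Mlc1, an alkali light chain of muscle myosin (BDGP6.54 chromosome 3R, 27657078 to 27660177), was measured at 19930.4 and 17939 TPM in ref-RNA, 8803 and 10137 TPM in EC-RNA and 414 and 664 TPM in mock-RNA. Its log2 fold change between EC-RNA and ref-RNA was -1.001 (SE 0.10, adjusted p = 0.00436). For Mhc, the heavy chain of muscle myosin, ref-RNA had 6906 and 6172 TPM, EC-RNA 1466 and 2784 TPM and mock-RNA 5436 and 3767 TPM, a log2 fold change of -1.69 (SE 0.37, adjusted p = 0.0283). The EC-RNA values of both genes were below the ref-RNA values in every pair, and those of Mhc were also below both mock-RNA values. The only thick filament list member lost in both was Mlc-c, the light chain of non-muscle myosin, at 2.14 and 0.981 TPM in EC-RNA against 193 and 117 TPM in ref-RNA.

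Among thin filament genes, Act57B, a larval muscle actin (2R, 20944021 to 20946431), was at 28361 and 27608 TPM in ref-RNA, 16174 and 14723 TPM in EC-RNA and 3091 and 27668 TPM in mock-RNA. The EC-RNA values were below those of ref-RNA and close to each other, while 1 mock-RNA library reached the ref-RNA level. The fold change did not reach 2-fold and so was not called (log2 fold change -0.86, SE 0.05, adjusted p = 0.00286). Muscle actin genes are near-identical in sequence, and the division of reads between Act57B and Act87E, at 4532 and 4989 TPM in EC-RNA and 8977 and 9233 TPM in ref-RNA, is uncertain. The troponin T gene up was called lower, with 3173 and 2742 TPM in ref-RNA and 1107 and 931 TPM in EC-RNA (log2 fold change -1.54, SE 0.20, adjusted p = 0.00803). Troponin C was divided among its genes: TpnC73F and TpnC47D were kept near the ref-RNA level, at 4873 and 3579 TPM and 1338 and 918 TPM in EC-RNA against 5445 and 4987 TPM and 1348 and 952 TPM in ref-RNA, whereas TpnC25D, at 132 and 93.5 TPM in ref-RNA, was listed at 0 in both EC-RNA libraries and in both mock-RNA libraries.

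Titin-like and Z-disc genes were kept in both libraries without exception. The gene sls, which encodes the titin-like protein of the I-band (3L, 2039681 to 2115611), was at 1122 and 932 TPM in ref-RNA and 403 and 571 TPM in EC-RNA, and bt, the projectin gene, was at 4010.0 and 3290.2 TPM and 1361 and 1189.7 TPM. The level of bt was called lower (log2 fold change -1.51, SE 0.18, adjusted p = 0.00656), and that of sls was not (log2 fold change -1.09, SE 0.43, adjusted p = 0.122). Zasp66, a Z-disc protein gene, overlapped between the groups, at 5206 and 5335 TPM in ref-RNA and 7191 and 4131 TPM in EC-RNA. Mlp84B, a muscle LIM protein of the Z-disc (3R, 7112850 to 7117732), went the other way, with 3753 and 3086 TPM in ref-RNA, 7805 and 6330.3 TPM in EC-RNA and 144 and 106 TPM in mock-RNA. Both EC-RNA values were above the ref-RNA values, and Mlp84B was called higher (log2 fold change 1.05, SE 0.17, adjusted p = 0.0128). It was the sole sarcomere gene so called, while the other LIM protein gene of the list, Mlp60A, had 222 and 542 TPM in EC-RNA and 1666 and 952 TPM in ref-RNA.

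Of other muscle genes, 4 of 5 for calcium and energy and 4 of 7 for muscle identity and adhesion were kept in both EC-RNA libraries. Gpdh of the former and nrm and if of the latter were kept in replicate 2 only. The muscle calcium pump SERCA was at 2179 and 2286 TPM in ref-RNA and 492 and 1624 TPM in EC-RNA, and arginine kinase, Argk, which buffers ATP in muscle, was at 10025 and 9085 TPM and 2994 and 6400.1 TPM. EC-RNA was below ref-RNA for both genes, and neither passed the test (adjusted p = 0.216 and 0.112). Mef2, the transcription factor of muscle differentiation, was at 229.9 and 182 TPM in ref-RNA and 101 and 199 TPM in EC-RNA, with overlapping groups. The RNA-binding gene how, which acts in muscle and tendon cells, was above ref-RNA in both libraries, at 836 and 782 TPM in EC-RNA and 447 and 357 TPM in ref-RNA, without passing the test (log2 fold change 1.01, SE 0.46, adjusted p = 0.161). The beta integrin gene mys, whose product anchors muscle ends, was the member of the muscle adhesion list lost in both, at 180.1 and 174 TPM in ref-RNA and 6.27 and 0.643 TPM in EC-RNA (log2 fold change -5.69, SE 1.15, adjusted p = 0.0236).

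All 12 glycolytic enzyme genes of the list were abundant in ref-RNA, and all 12 were kept in EC-RNA replicate 2 and 10 in replicate 1. The aldolase gene Ald was at 12017 and 12149 TPM in ref-RNA, 9446 and 11805 TPM in EC-RNA and 20952 and 409.8 TPM in mock-RNA. EC-RNA was slightly below ref-RNA, and 1 mock-RNA library was above both. Gapdh1 was the glycolytic gene called lower, at 2068 and 2029 TPM in ref-RNA and 981 and 635 TPM in EC-RNA (log2 fold change -1.38, SE 0.32, adjusted p = 0.0345), and its paralog Gapdh2 was at 5851 and 5637 TPM and 4785 and 4063 TPM. The medians of the list were -0.77 and -0.87 on the log2 scale. Values below ref-RNA in both libraries were found for 9 of the 12 genes, while phosphoglucose isomerase (Pgi, 7.82 and 438 TPM) and triosephosphate isomerase (Tpi, 9.82 and 571 TPM) were lost in replicate 1 and present in replicate 2.

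Of 9 abundant genes of glycogen metabolism, a list drawn up after the abundant genes were seen, 4 were kept in both EC-RNA libraries, 3 in neither and 2 in replicate 2 only, and for 7 both EC-RNA values were below ref-RNA. The phosphorylase gene GlyP, which releases glucose from glycogen, was at 2131 and 2221 TPM in ref-RNA and 1050.1 and 1099 TPM in EC-RNA, and Glycogenin, which primes its synthesis, was at 4013 and 4242 TPM and 2263 and 1695 TPM. Both were kept at about equal levels in the EC-RNA replicates and were called lower (log2 fold change -1.02, SE 0.18, adjusted p = 0.0170 for GlyP and log2 fold change -1.07, SE 0.19, adjusted p = 0.0159 for Glycogenin). UGP, which makes UDP-glucose, and AGBE, the branching enzyme, were lost in both, at 1.77 and 0.497 TPM and 2.38 and 0.194 TPM in EC-RNA against 175 and 159.8 TPM and 143 and 130.2 TPM in ref-RNA, and both were called lower.

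Genes of the mitochondrial genome made up a large share of TPM in EC-RNA and ref-RNA, 24.2% and 25.0% in ref-RNA, 39.1% and 31.1% in EC-RNA and 3.87% and 1.40% in mock-RNA. Of the 12 abundant genes, 9 were kept in both EC-RNA libraries, and the medians were 0.32 and 0.29. The cytochrome oxidase subunit genes mt:CoIII and mt:CoI were at 136250.0 and 90797 TPM and 61362 and 47446 TPM in EC-RNA, against 65451 and 68039.8 TPM and 50342 and 48505 TPM in ref-RNA. The groups overlapped for mt:CoI and did not for mt:CoIII, which was not called (log2 fold change 0.74, SE 0.23, adjusted p = 0.0682). The remaining oxidase subunit encoded there, mt:CoII, was at 5229 and 4408 TPM in ref-RNA, 23740.1 and 11396 TPM in EC-RNA and 119.6 and 130.1 TPM in mock-RNA, and was called higher (log2 fold change 1.78, SE 0.42, adjusted p = 0.0349). The complex I subunit mt:ND6 was at 174 and 216 TPM in ref-RNA and 1963 and 1359.8 TPM in EC-RNA, was listed at 0 in both mock-RNA libraries and was also called higher (log2 fold change 3.07, SE 0.50, adjusted p = 0.0137). EC-RNA was above ref-RNA in both replicates of each. Another complex I subunit, mt:ND2, was lost, at 87.9 and 122 TPM in ref-RNA and 0.678 and 0.996 TPM in EC-RNA. The shortest, mt:ATPase8 (mitochondrial genome, 3907 to 4068), was at 39.4 and 6682 TPM in ref-RNA, far apart, and listed at 0 in EC-RNA and mock-RNA. It overlaps mt:ATPase6 (from 4062), so that the assignment of reads between them is uncertain.

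Few of the nuclear-encoded subunits that assemble with these proteins were kept in both EC-RNA libraries. Of 42 abundant genes of complexes I to V, 5 were kept in both, 19 in neither, 7 in replicate 1 only and 11 in replicate 2 only. Limma called 19 lower and 1 higher, beside 180 lower and 8 higher of all 920 abundant genes. Among all genes tested, 56.0% were called lower and 0.199% higher. Transcripts were under 1000 bases for 31 of the 42. Of all abundant genes, 36.9% of those of 500 to 1000 bases and 48.0% of those under 500 bases were lost in both. The list medians were -4.96 and -5.80 for complexes I and II and -5.48 and -3.37 for complexes III to V. The medians stayed below 0 without mitochondrially encoded genes and with quantile normalization. With median-ratio scaling they were -0.57 and -4.35 and -0.90 and -1.16, but the mean of both EC-RNA libraries was then above ref-RNA for 17 of the 42 genes and below for 25, against 2 and 40 on TPM. ATPsynC, the ring subunit of ATP synthase, was at 3851 and 3296 TPM in ref-RNA and 554 and 2463 TPM in EC-RNA, with 10313 and 443 TPM in mock-RNA. ATPsynbeta, which carries its catalytic sites, was at 1607 and 1393 TPM in ref-RNA and 417 and 185 TPM in EC-RNA and was called lower (log2 fold change -2.43, SE 0.60, adjusted p = 0.0403). Both genes were lower in EC-RNA, and 1 mock-RNA library held more ATPsynC than any other library. The complex I subunit ND-18 and the cytochrome oxidase subunit COX7C, at 116 and 88.5 TPM and 118 and 95.6 TPM in ref-RNA, were listed at 0 in both EC-RNA and both mock-RNA libraries. The exception was ND-B17.2, a further complex I subunit (2L, 2579201 to 2580172), with 207 and 172 TPM in ref-RNA, 1083 and 871 TPM in EC-RNA and 0 in both mock-RNA libraries, which was called higher (log2 fold change 2.36, SE 0.56, adjusted p = 0.0356). The adenine nucleotide carrier sesB, which exchanges ATP across the inner membrane, was called lower, at 3137 and 2941 TPM in ref-RNA and 325 and 841 TPM in EC-RNA (log2 fold change -2.54, SE 0.57, adjusted p = 0.0309).

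Cuticle genes of the epidermis fell into opposite groups within a family. Larval cuticle protein genes Lcp1 (2R, 8430115 to 8431243) and Lcp4 were above ref-RNA in both EC-RNA libraries, Lcp1 at 7343 and 6802 TPM in ref-RNA, 11278 and 17399 TPM in EC-RNA and 67.6 and 122 TPM in mock-RNA, and Lcp4 at 8833 and 6115 TPM, 10514 and 19529 TPM and 4039 and 146063 TPM. Lcp2, a close paralog of Lcp1, was at 909 and 1163 TPM in ref-RNA and 3800.4 and 2004 TPM in EC-RNA. No Lcp gene was called higher, since the fold change of Lcp1 stayed under 2-fold (log2 fold change 0.99, SE 0.25, adjusted p = 0.0400) and the others did not pass the adjusted p. By contrast Lcp9 and Lcp65Ag3 were lost and called lower, at 422 and 352 TPM and 232 and 218 TPM in ref-RNA and 2.87 and 1.06 TPM and 3.26 and 0 TPM in EC-RNA. For Lcp9, mock-RNA at 417 and 108 TPM was above EC-RNA, and for Lcp4 the second mock-RNA library was above every other library. Of 11 Cpr genes, a family of chitin-binding cuticle proteins, 3 were kept in both, 4 in neither and 4 in 1 library. Cpr67Fa1 was at 356 and 294 TPM in ref-RNA and 4.74 and 1.74 TPM in EC-RNA and was called lower (log2 fold change -6.36, SE 1.02, adjusted p = 0.0133). Of the chitin deacetylase genes, verm was kept in both EC-RNA libraries, at 378 and 1192 TPM against 569 and 526 TPM in ref-RNA, while serp was kept in replicate 2 only, at 8.57 and 498 TPM against 288 and 301 TPM.

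Fat body genes were kept in 8 of 10 cases, and ref-RNA itself varied for them. The storage protein gene Lsp1gamma was at 4616 and 15596 TPM in ref-RNA, 2758 and 3525 TPM in EC-RNA and 0 and 18.3 TPM in mock-RNA, and apolpp, the gene of the lipid carrier of the blood, was at 2769 and 8236 TPM, 892 and 1932 TPM and 31.1 and 52.2 TPM. Ref-RNA replicate 2 stood well above replicate 1 for both, so the EC-RNA values lay nearer to replicate 1. In sum the 10 genes held 1.65% and 5.58% of TPM in ref-RNA, 1.01% and 1.66% in EC-RNA and 0.0125% and 0.0395% in mock-RNA. The medians of the list, -1.90 and -1.29, use that mean of unequal replicates as their base. Fbp2, a fat body protein gene, overlapped between the groups, at 752 and 2934 TPM in ref-RNA and 1052 and 1889 TPM in EC-RNA. Tsf1, the transferrin gene, was the fat body gene called lower, at 368 and 302 TPM in ref-RNA and 5.24 and 1.70 TPM in EC-RNA (log2 fold change -6.35, SE 1.05, adjusted p = 0.0144), and mock-RNA held 25.6 and 34.8 TPM. The prophenoloxidase genes PPO1 and PPO2, which mark crystal cells among the blood cells, were both kept, at 679 and 206 TPM and 116 and 328 TPM in EC-RNA against 619 and 646 TPM and 514 and 506 TPM in ref-RNA. Abundant oenocyte and lipid enzyme genes were kept in replicate 2 in 6 of 6 cases and in replicate 1 in 2, Cyp4g1 and FASN3. Cyp4g1, which makes cuticular hydrocarbons in oenocytes, was at 597 and 677 TPM in ref-RNA and 805 and 328 TPM in EC-RNA.

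Ribosomal RNA pseudogenes, a list added after the abundant genes were seen, were kept without exception and held 8.52% and 7.55% of TPM in ref-RNA, 8.34% and 9.73% in EC-RNA and 11.9% and 28.0% in mock-RNA. Their sequences are near-identical copies of ribosomal RNA, which the library kit was meant to remove, and mock-RNA held at least as large a share as EC-RNA.

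Few neuronal genes reached 100 TPM in ref-RNA. The abundant pan-neuronal genes were Rbp9, an RNA-binding protein of the ELAV family, and Syx1A, a syntaxin of vesicle release, and both were kept. Syx1A was at 184 and 168 TPM in ref-RNA, 176 and 289 TPM in EC-RNA and 10.6 and 0 TPM in mock-RNA, and Rbp9 was at 261 and 229.6 TPM, 104 and 97.3 TPM and 11.7 and 7.05 TPM. Syx1A overlapped between the groups and Rbp9 was lower in both EC-RNA libraries, with no call for either (adjusted p = 0.777 and 0.352). From the md neuron list only lola, a transcription factor gene also used in many other cells, was abundant, at 526 and 424 TPM in ref-RNA and 206 and 525 TPM in EC-RNA.

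Over all 25 pan-neuronal genes, whatever their level, 7 exceeded 1 TPM in both EC-RNA libraries and 5 were listed at 0 in both, and their summed level was 747 and 632 TPM in ref-RNA, 675 and 1234 TPM in EC-RNA and 1642 and 211 TPM in mock-RNA. Over the 24 md neuron genes, 4 exceeded 1 TPM in both EC-RNA libraries and 11 were listed at 0 in both, and the sums were 853 and 713 TPM in ref-RNA, 674 and 880 TPM in EC-RNA and 4802 and 48.9 TPM in mock-RNA. None was called higher, and 6 of 21 pan-neuronal and 3 of 13 md neuron genes tested were called lower, against 0.199% and 56.0% of all genes tested. In mock-RNA replicate 1 single genes carried these sums, ss with 4648 TPM for the md neuron list and jeb with 1337 TPM for the pan-neuronal list, and in EC-RNA replicate 1 lola and vvl made up most of the md neuron sum. The sodium channel subunit gene ppk, a defining marker of class IV md neurons, was at 6.79 and 4.80 TPM in ref-RNA and 0 and 0.0910 TPM in EC-RNA. The pan-neuronal marker elav was at 63.1 and 54.8 TPM in ref-RNA and 32.4 and 331 TPM in EC-RNA, and the md neuron transcription factor gene ct was at 31.5 and 28.2 TPM and 0.426 and 45.1 TPM. Both elav and ct were far higher in EC-RNA replicate 2 than in replicate 1. The reverse was seen for cpx, at 13.5 and 10.9 TPM in ref-RNA and 147 and 0.136 TPM in EC-RNA, and for Syn, at 1.10 and 2.42 TPM and 73.4 and 0 TPM. Each EC-RNA value exceeded each ref-RNA value for Csp and Frq1 of the pan-neuronal list and vvl of the md neuron list, against 3.16% of all genes tested. The gene vvl was at 55.0 and 42.2 TPM in ref-RNA and 407 and 85.0 TPM in EC-RNA, and none of these genes passed the test. Each EC-RNA value was lower for 11 genes of either list, against 69.1% of all genes tested. The summed level of muscle genes in EC-RNA was above that of the neuronal lists, the thin filament list alone reaching 35956 and 34199 TPM. By these markers EC-RNA was not restricted to neuronal transcripts, and the label md neurons is used here for the driver only. Glial genes summed to 202 and 206 TPM in ref-RNA and 250 and 98.2 TPM in EC-RNA, tracheal genes to 78.5 and 58.4 TPM and to 1.02 and 89.6 TPM, and no gene of either list was abundant.

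Cytoplasmic ribosomal protein genes differed widely between the EC-RNA replicates. Of the 66 abundant genes, 42 were kept in replicate 2 and 15 in replicate 1, and the list medians were -0.21 and -5.26. The EC-RNA values differed by over 10-fold for 34 of them. RpL5 was at 476 and 625 TPM in ref-RNA and 446 and 1686 TPM in EC-RNA, RpS3A was at 717 and 755 TPM and 502 and 192 TPM, and RpL30, at 134 and 102 TPM in ref-RNA, was listed at 0 in both EC-RNA libraries. Replicate 2 was above replicate 1 for RpL5 and below it for RpS3A. RpS28b, a protein of the small subunit (X, 9554623 to 9555661), stood apart, at 173 and 186 TPM in ref-RNA, 1487 and 951 TPM in EC-RNA and 36.2 and 54.5 TPM in mock-RNA, and was called higher (log2 fold change 2.72, SE 0.57, adjusted p = 0.0255). The genes RpS23 and RpS24 were likewise above ref-RNA in both EC-RNA libraries, at 1112 and 475 TPM and 613 and 881 TPM against 148 and 134 TPM and 169.8 and 284 TPM, and did not pass the test. Of the 66 genes, 20 were called lower and 1 higher, beside 180 and 8 of all 920 and 56.0% and 0.199% of all genes tested. For 34 of the 66 mock-RNA had a mean no lower than that of EC-RNA, against 183 of all 920.

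Translation factors were intermediate, with 10 of 24 kept in both. The elongation factor gene eEF1alpha1 was at 2228 and 2978 TPM in ref-RNA and 1273 and 2789 TPM in EC-RNA, with overlapping groups, and pAbp, the poly(A)-binding protein gene, was above ref-RNA in both libraries, at 2338 and 1923 TPM against 1452 and 1814 TPM. Neither was called. Regulators of mRNA decay and translational repression, a list drawn up after the abundant genes were seen, were kept in 13 of 16 cases, and 15 of the 16 had transcripts of 1000 bases or more. Of the 16, 6 were above ref-RNA in both libraries, against 89 of the 920 and 3.16% of all genes tested. 4E-T, a translational repressor that binds the cap-binding protein, was at 164 and 153 TPM in ref-RNA and 688 and 174 TPM in EC-RNA, and eIF4EHP, a cap-binding repressor, was at 129.7 and 100.1 TPM and 266 and 549.6 TPM. Both were listed at 0 in mock-RNA, and neither passed the test (adjusted p = 0.466 and 0.216). Thor, a repressor that also binds the cap-binding protein, was lost, at 356 and 244 TPM in ref-RNA and 7.18 and 14.1 TPM in EC-RNA (log2 fold change -4.74, SE 1.09, adjusted p = 0.0331). Among RNA-binding genes, sqd was at 1079 and 1076 TPM in ref-RNA, 1048 and 872 TPM in EC-RNA and 901 and 516 TPM in mock-RNA, and Fmr1, which regulates translation in neurons and other cells, was at 121 and 119 TPM, 271 and 538 TPM and 8.62 and 0 TPM. EC-RNA was slightly below ref-RNA for sqd and above it for Fmr1, with no call for either.

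All 7 abundant genes of the list for ecdysone and transcription response, which also holds kay, the gene of the AP-1 factor Fos, and h, the repressor hairy, were kept, with list medians of 1.87 in replicate 1 and 0.10 in replicate 2, whereas the medians of all 920 genes were below 0. The ecdysone receptor gene EcR (2R, 6087873 to 6169087) was at 139.8 and 108 TPM in ref-RNA, 473 and 202 TPM in EC-RNA and 4.86 and 0 TPM in mock-RNA. br, an early response transcription factor gene, was at 201 and 185 TPM, 359 and 228 TPM and 25.0 and 72.2 TPM. EC-RNA exceeded ref-RNA in every pair for these genes, with replicate 1 the higher, and neither was called (adjusted p = 0.367 and 0.622). For Eip71CD, h and Eip63F-1 EC-RNA replicate 1 was above both ref-RNA values and replicate 2 was not, with EC-RNA values of 1279.7 and 49.7 TPM, 501 and 147 TPM and 576 and 139.5 TPM against 364 and 262 TPM, 120.1 and 153 TPM and 182 and 96.5 TPM in ref-RNA. No gene of the list passed the test, and with quantile normalization the median of replicate 2 was -0.36. Genes of kinase A, CaM kinase and G proteins, also a list added later, were kept in replicate 2 in 11 of 11 cases and in replicate 1 in 8. Cam, the calmodulin gene, was at 1134 and 1243 TPM in ref-RNA and 1360.0 and 1028 TPM in EC-RNA, and CaMKII was at 805 and 633 TPM and 647 and 592 TPM, values within 2-fold of each other. The vacuolar ATPase, a proton pump, had no gene lost in both and 6 of 13 kept in both, with Vha16-1 at 2477 and 2138 TPM in ref-RNA and 1942 and 2607 TPM in EC-RNA.

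The 8 genes called higher came from several functions, and 3 of them (mt:CoII, mt:ND6 and ND-B17.2) encode subunits of the respiratory chain. Besides these, Mlp84B and RpS28b they were CG15282, cib and Atg8a. CG15282 (2L, 14712471 to 14713298) was at 227 and 129 TPM in ref-RNA and 1255 and 2351 TPM in EC-RNA (log2 fold change 3.32, SE 0.65, adjusted p = 0.0217), but the mock-RNA libraries held 36653 and 0 TPM, and replicate 1 of mock-RNA was above both EC-RNA values. The gene cib (X, 4106113 to 4110981), which encodes a protein that binds actin monomers, was at 475 and 428 TPM in ref-RNA and 2225 and 1312 TPM in EC-RNA and at 0 in both mock-RNA libraries (log2 fold change 1.92, SE 0.43, adjusted p = 0.0299). Atg8a (X, 10764878 to 10768338), a ubiquitin-like protein of autophagosomes, was at 1682 and 1419 TPM in ref-RNA, 4754 and 3008 TPM in EC-RNA and 22.9 and 51.98 TPM in mock-RNA (log2 fold change 1.29, SE 0.29, adjusted p = 0.0311). Their top ref-RNA transcripts were 525 to 2382 bases long. Their fold changes were above 0 in all alternatives of the processing tried, and each was called in 6 or 8 of its 12 or 13 alternatives. None of the 8 was called by limma without ref-RNA replicate 1 or without ref-RNA replicate 2, and Mlp84B and Atg8a were not called without EC-RNA replicate 1 either, at log2 fold changes of 0.90 and 0.96.

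The genes most fully lost were of many kinds. Besides mt:ATPase8, ND-18, TpnC25D, COX7C and RpL30, which were at 0 in both EC-RNA libraries, the lowest ratios to the ref-RNA mean included those of eIF3h, a subunit of an initiation factor, at 91.6 and 114 TPM in ref-RNA and 0 and 0.209 TPM in EC-RNA, and Oat, an ornithine aminotransferase gene, at 109.9 and 121 TPM and 0 and 0.316 TPM. Also among the lowest were the RNA helicase gene Dbp80, at 112 and 100.4 TPM and 0 and 0.327 TPM, and the ATP synthase subunit gene ATPsynO, at 93.5 and 113 TPM and 0 and 0.342 TPM. All 4 genes were called lower, at adjusted p of 0.00295, 0.00308, 0.00307 and 0.00310. Mock-RNA was listed at 0 in both libraries for 61 of the 178 lost genes. On average mock-RNA was no lower than EC-RNA for 114 of the 178 (64.0%), and for 31 of the 418 kept in both (7.42%). Lost and kept genes are defined by these EC-RNA values, so a contrast in this direction is built in. Genes at 0 in both sample types also count as no lower. Adh, the alcohol dehydrogenase gene, was picked with its values known as the most abundant lost gene whose ref-RNA replicates lay within 2-fold, at 1522 and 2213 TPM in ref-RNA, 22.4 and 13.7 TPM in EC-RNA and 29.0 and 137 TPM in mock-RNA (log2 fold change -6.63, SE 0.91, adjusted p = 0.00911).

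Genes with the widest gap between the EC-RNA replicates were at or above ref-RNA in 1 library and near 0 in the other. Jafrac1, a peroxiredoxin gene, was at 329 and 355 TPM in ref-RNA and 1.44 and 1471 TPM in EC-RNA, and ND-B15, a complex I subunit, was at 82.9 and 124 TPM and 2.02 and 1476 TPM. The reverse was seen for GstE1, a glutathione transferase gene, at 126 and 86.3 TPM and 879 and 0.977 TPM, and for the histone gene His2A:CG33808, at 620.3 and 452 TPM and 1835 and 2.23 TPM. Replicate 2 was the high library for the first pair and replicate 1 for the second. Histone genes are present in many near-identical copies, and the division of reads among them is uncertain. The mean of 2 such EC-RNA values describes neither library. The same split was present at the edge of the set. CG17738 and NijA, just inside 100 TPM, were kept in replicate 1 only and in replicate 2 only, at 463 and 0.971 TPM and 1.20 and 381 TPM in EC-RNA, and of the genes just outside, roq was kept in both, at 42.1 and 38.1 TPM, and CG14893 in neither, at 0.376 and 0.138 TPM.

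**Figure D4:**
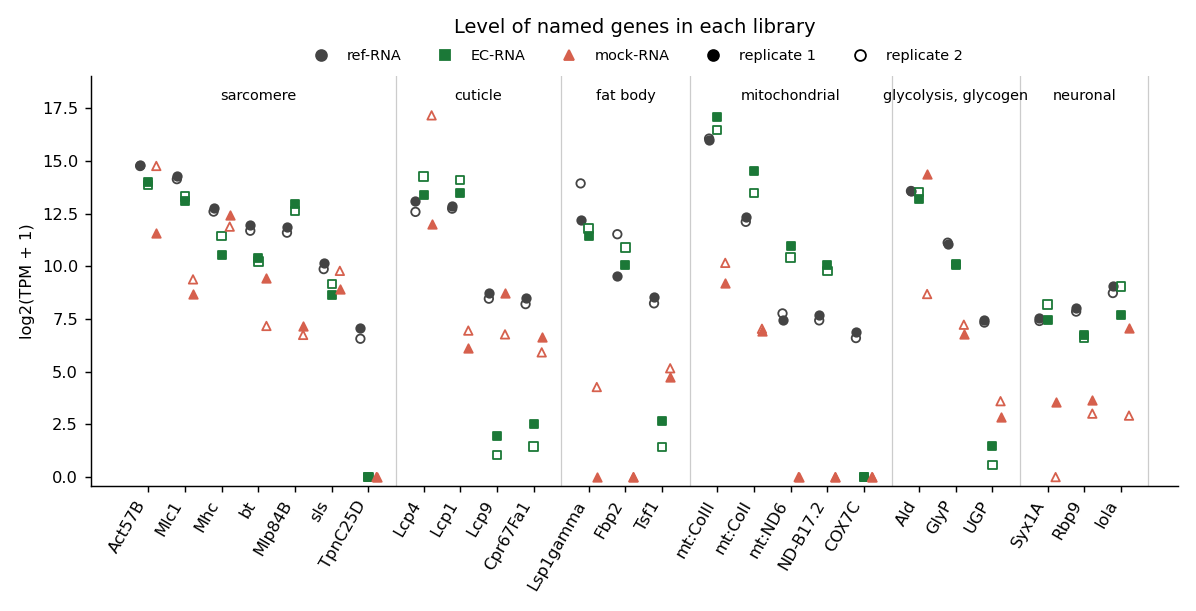
Level of named genes in each library (vertical axis, log2 of TPM + 1), by tissue or function, with circles for ref-RNA, squares for EC-RNA and triangles for mock-RNA, filled for replicate 1 and open for replicate 2. EC-RNA lies near ref-RNA for most sarcomere genes and at or near 0 for TpnC25D, Lcp9, UGP and COX7C. It is above ref-RNA for Mlp84B, Lcp4, Lcp1, mt:CoIII, mt:CoII, mt:ND6 and ND-B17.2.

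Behind the gene sums, fewer transcripts per gene carried the TPM in EC-RNA than in ref-RNA. Of the 920 genes, 749 have 2 or more transcripts in the table, and 365 of these were kept in both EC-RNA libraries. Among the 365, the most abundant transcript made up a median of 66.1% and 67.5% of the gene in ref-RNA and 99.1% and 99.3% in EC-RNA. In ref-RNA a median of 3 transcripts per gene exceeded 1% of the gene, and in EC-RNA a median of 1. A single transcript held over 99% of the gene for 54 and 42 of the 365 genes in ref-RNA and for 191 and 193 in EC-RNA. The ref-RNA replicates had the same top transcript for 310 of the 365 genes and the EC-RNA replicates for 238. For 149 of those 310, both EC-RNA libraries had the ref-RNA top transcript. For 62 they had the same other transcript, which was shorter than the ref-RNA top transcript for 51 and longer for 9. In the 137 genes with several transcripts that were lost in both, the top transcript held a median of 90.2% and 85.5% in ref-RNA and 100% and 100% in EC-RNA. The paper reports far fewer mapped reads for EC-RNA than for ref-RNA, and the part of read number in these shares was not tested.

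**Figure D5:**
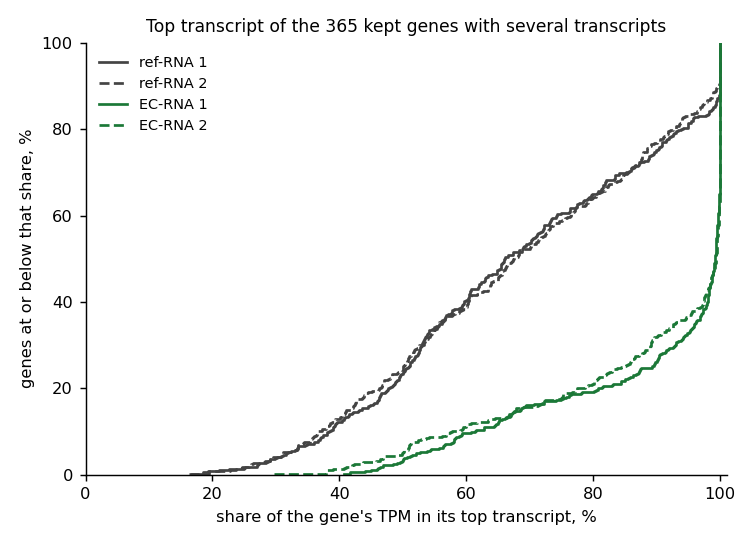
Cumulative share of genes (vertical axis, %) by the share of the gene's TPM that its most abundant transcript holds (horizontal axis, %), for the 365 genes with several transcripts that were kept in both EC-RNA libraries, with 1 line per library. The ref-RNA lines rise steadily, with medians of 66.1% and 67.5%, and the EC-RNA lines stay low until close to 100%.

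Sarcomere genes were among those with another top transcript in both EC-RNA libraries, and the examples given were picked with their values known. The troponin I gene wupA, with 13 transcripts, had FBtr0074520 as its top transcript in ref-RNA, at 81.5% and 84.8% of the gene, and FBtr0336895 in EC-RNA, at 75.7% and 75.4%. These transcripts are 1160 and 1159 bases long. For Mf, myofilin, FBtr0345220 (1440 bases) led in ref-RNA at 49.4% and 50.02%, and FBtr0083033 (1783 bases) led in EC-RNA at 58.2% and 66.2%. For sls the leading transcript was FBtr0332680 (49523 bases) in ref-RNA, at 46.4% and 46.7%, and FBtr0309042 (17268 bases) in EC-RNA, at 40.7% and 41.04%. The replicates of each sample type were alike in these 3 genes, but not in all: the shared EC-RNA top transcript held 68.6% and 29.7% of Mhc, 98.0% and 51.5% of Zasp52 and 61.4% and 98.5% of Actn. In the calmodulin gene Cam the EC-RNA leader FBtr0304964 (3406 bases, 65.2% and 50.8%) was longer than the ref-RNA leader FBtr0345018 (1435 bases, 71.9% and 72.4%). The values are kallisto's estimates among transcripts that share most of their sequence, no test was run on them, and because TPM divides by transcript length, the choice of isoform also enters the gene sums.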

How the data were processed

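Nascent RNA was purified from early L3 carcasses of EC-RNA, ref-RNA and mock-RNA larvae, with 2 libraries per sample type, and the library kit (NuGen Ovation Universal with AnyDeplete) removed ribosomal RNA. The deposited values are TPM per transcript, which the authors made with Trimmomatic and kallisto on BDGP6 transcripts. Versions and the use of strand in counting are not given in the sources used here. TPM keeps no depth, so no counting interval could be given, and each library sums to the same total, so a rise of some genes lowers the others.

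The 30828 transcripts were summed to 14240 genes by the gene names in the table, with blank cells as 0. Genes with a ref-RNA mean of 100 TPM or more were described, and a gene was kept in an EC-RNA library at 1 part in 8 of the ref-RNA mean or more. Log2(TPM + 1) of the 4 EC-RNA and ref-RNA libraries was tested with limma 3.58.1 in R 4.3.3 (moderated test with a mean trend, two-sided, no replicate term) for the 9064 genes averaging 1 TPM or more, with Benjamini-Hochberg adjustment over all of them. A call needed an adjusted p below 0.05 and a fold of 2. The fold change is on the log2(TPM + 1) scale and understates changes of low genes. The test was checked on simulated data in which all libraries had the spread of the ref-RNA replicates. The EC-RNA replicates lay further apart, and the check does not cover that wider spread. Tables were handled in Python 3.11.15 with pandas 2.3.3 and NumPy 2.4.6. Lengths, exons, 3′ UTRs and coordinates were read from Ensembl release 115 (BDGP6.54), in which 904 of the 920 genes were found and 917 top transcripts had a length. No sequences were used here.

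The genes and lists were chosen with earlier results of these data known. Genes were named by rule: the 10 most abundant, the 2 most abundant of each list, the 15 with the largest fold change among genes whose EC-RNA values both exceeded those of ref-RNA, the 15 with the smallest ratio, the 10 with the widest gap between EC-RNA libraries, and the 2 on each side of 100 TPM. Not all of these are described, and the other genes named were chosen for their role after their values were seen. Replicate numbers come from the labels. Alternatives changed the pseudocount, the filter, the scaling, the samples fitted, the replicate term, the boundary and the minimum level, and left out each library in turn.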

Additional observations from a re-analysis of the deposited data

How the results depend on the processing

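The counts of called genes depended on the libraries and the scaling. Beside 8 higher and 180 lower, a pseudocount of 10 TPM and a fit of all 3 sample types each gave 5 higher, quantile normalization 0 and 0 by limma (22 and 229 at an unadjusted p below 0.05), and median-ratio scaling 17 and 15. Leaving out each library in turn gave 0 to 120 higher and 68 to 534 lower. Same-numbered libraries did not deviate together (Pearson r of 0.003 over 9064 genes), and a fit with the replicate number as a block gave 3 higher and 112 lower, of which 111 were among the 180.

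Median-ratio scaling gave 696 genes kept in both EC-RNA libraries, 23 in neither and 201 in 1 library. The genes lost in both numbered 514 at a minimum of 50 TPM, 45 at 200 TPM and 4 at 500 TPM, where 135 were kept in both and 23 in 1 library, as fewer or more genes enter. Leave-outs gave 415 to 668 kept, 179 to 428 lost and 321 to 324 in 1 library. Boundaries of 1 part in 4 or 1 part in 16 and the choice of genes on 1 ref-RNA replicate moved these 3 counts by less than 1.5 times. Of the 108 list medians recomputed with pseudocounts of 0.1 and 10 TPM, 9 moved. They were -3.34 and -3.50 for Cpr genes, -3.23 and -3.44 for complexes I and II, -3.72 in replicate 1 for complexes III to V and -3.33 and -3.49 for redox genes at 10 TPM, and -6.75 and -6.53 in replicate 2 for complexes I and II and redox genes at 0.1 TPM. The paper reports far fewer mapped reads for EC-RNA than for ref-RNA. Without read numbers per gene it is unknown how far values near 0 in EC-RNA reflect that depth. With 2 libraries per sample type that differ this much, genes kept in 1 library only were not resolved.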
